A study of Mus musculus with 15 samples.

Results

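To find which transcripts differ from WT skin wherever OTULIN is missing from keratinocytes, whether or not the sampled skin was inflamed, the 10 OTULIN-KO skin libraries of the series were taken as one group and compared with its 5 WT libraries across all genes. The OTULIN-KO group held 5 libraries from lesional and 5 from non-lesional skin of *Otulin* fl/fl mice carrying K14-Cre, in which the keratin 14 promoter drives Cre in keratinocytes only, so that fibroblasts, muscle, vessels and leukocytes in the same sample kept the gene. WT skin came from littermates with the loxP-flanked alleles and no Cre. All libraries were from 3-week-old mice of the C57BL/6 strain, and all 15 libraries of the series were used. The sources do not say whether a lesional and a non-lesional sample were cut from the same mouse. The 10 OTULIN-KO libraries may therefore come from fewer than 10 mice, in which case the p-values of the pooled comparison are too small. Within a group the study's description speaks of separate mice.

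OTULIN is the deubiquitinase that cleaves linear (M1-linked) ubiquitin chains, which the LUBAC complex of HOIP, HOIL-1 and SHARPIN attaches to proteins of the TNF receptor 1 signalling complex. These chains recruit kinases that activate NF-κB, and they restrain RIPK1, a kinase that can start apoptosis through FADD and caspase-8 or necroptosis through RIPK3 and MLKL. Dying keratinocytes release molecules that alert immune cells, and type I interferons are among the signals that follow. Interferons act through JAK kinases and a complex that holds STAT2 and IRF9 on genes whose promoters carry interferon-stimulated response elements.

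Libraries held 1962604 to 2567138 counts. The libraries held the markers of skin: 30 of 31 epidermal differentiation genes and 15 of 15 collagen and matrix genes passed the filter on low counts, which asks for about 10 counts in at least 5 libraries. Lesional replicates 2 and 11 had 2823 and 4802 counts of *S100a8*, a calgranulin of inflamed epidermis and neutrophils, against 3 to 10 in WT libraries, while lesional replicates 5, 8 and 14 had 9, 6 and 9. Non-lesional replicate 3 had 260 counts. WT replicate 1 had the highest level of the hair follicle list, a mean log2 CPM of 5.83 against 3.55 to 4.17 in the other WT libraries. Y-linked transcripts were under 10 counts in 1 library of each of the WT, non-lesional and lesional groups, so each group held the same share of such libraries.

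No gene passed an adjusted p under 0.05 between OTULIN-KO and WT skin. In edgeR's quasi-likelihood test 0 of 13461 genes were called (0%), and the smallest adjusted p was 0.9996. DESeq2's Wald test and limma's voomWithQualityWeights also called 0 genes. At an unadjusted p under 0.05 there were 471 genes (3.50%), of which 280 were higher (2.08%) and 191 lower (1.42%) in OTULIN-KO skin, a share below the threshold of 0.05 itself. DESeq2 gave 322 higher and 200 lower genes and voomWithQualityWeights 259 and 258 at the same unadjusted threshold. Values below are therefore given as measurements, and none of the single-gene differences passed correction for the genes tested.

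Each kind of OTULIN-KO skin was also compared with the same 5 WT libraries. Non-lesional skin had 257 genes higher (1.91%) and 179 lower (1.33%) at an unadjusted p under 0.05, and lesional skin had 455 higher (3.38%) and 209 lower (1.55%). No gene passed an adjusted p under 0.05 in either of these edgeR fits. Because they share their WT libraries, an unusual WT value enters both, and their agreement was not tested. In both fits at once, 81 genes were higher (0.602%) and 28 were lower (0.208%). Of these 109 genes, 105 also had an unadjusted p under 0.05 when the 10 libraries were pooled. Without lesional replicates 2 and 11, the 2 libraries with the high *S100a8* counts, the numbers were 34 higher and 22 lower. The lesional total of 664 genes at an unadjusted p under 0.05 was 350 without lesional replicate 11 and 1020 without lesional replicate 14.

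For the 81 genes that were higher in both fits, the size in lesional skin depended on lesional replicates 2 and 11. Their median log2 fold change was 0.68 in non-lesional and 1.06 in lesional skin, and 72 of them had the larger value in lesional skin. Without those 2 libraries the medians were 0.68 and 0.45, and 61 of the 81 had the larger value in non-lesional skin. The 81 were chosen with those libraries in the lesional fit, so this change may partly follow from the choice. The 28 lower genes had medians of -0.48 and -0.67, and 25 of them had the more negative value in lesional skin, or 19 without the same 2 libraries, when the lesional median was -0.56. Lesional and non-lesional libraries were also compared directly, where 562 genes (4.18%) had an unadjusted p under 0.05 and 0 had an adjusted p under 0.05 in edgeR. Of the 109 genes, 7 were among those 562.

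**Figure D1:**
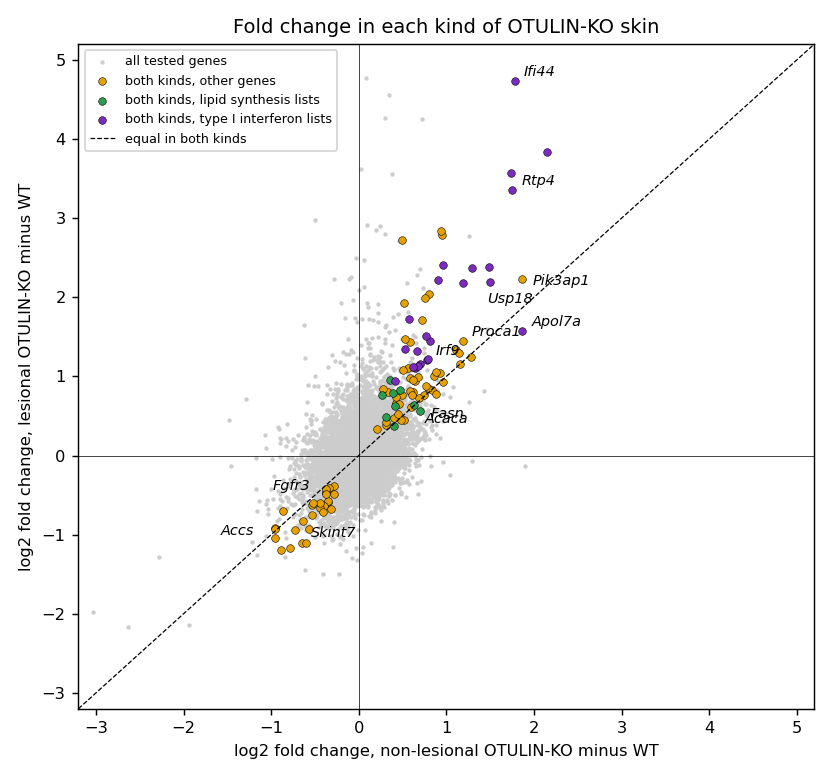
Each point is a tested gene, with the log2 fold change of non-lesional OTULIN-KO skin over WT on the horizontal axis and that of lesional OTULIN-KO skin over WT on the vertical axis, and coloured points are genes with an unadjusted p under 0.05 in both. Both axes use the same 5 WT libraries and 9 genes lie outside the range shown. Points of the type I interferon lists lie mostly above the dashed line of equality, and points of the lipid synthesis lists lie near it or above it. With lesional replicates 2 and 11 left out, 22 of the 23 interferon genes were lower in lesional than in non-lesional skin. Those genes were chosen with the 2 libraries included.

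In normalized CPM, read counts scaled to a common library size, 6 genes had no overlap between the 10 OTULIN-KO and the 5 WT libraries. In 5 of them values were higher in OTULIN-KO skin (0.0371% of tested genes), namely in *Rtp4*, *Kcnmb4*, *Qrsl1*, *Acly* and *Psmb4*, and *Fgfr3* was lower (0.00743%). The numbers depended on the scaling, with 3 higher and 3 lower under upper quartile factors and 0 lower over plain library totals. In a looser count, 98 genes (0.728%) had 8 or more of 10 OTULIN-KO libraries above all WT libraries and 67 genes (0.498%) had 8 or more below.

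*Rtp4*, an interferon-induced chaperone of membrane receptors on chr16:23520291-23614222 (GRCm38), was at 5.50, 6.18, 2.72, 4.69 and 7.59 CPM in WT libraries. Non-lesional libraries had 22.1, 9.02, 8.33, 33.6 and 18.1 CPM, and lesional libraries 75.7, 8.82, 12.9, 166 and 14.7 CPM. Every OTULIN-KO library lay above the WT range, but the lowest of them, 8.33 CPM, was close to the highest WT value. Fitted, the log2 fold change was 2.76 ± 0.88 (SE, n = 10 and 5), with 1.75 in non-lesional and 3.35 in lesional skin, and it was 1.56 without lesional replicates 2 and 11.

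*Kcnmb4*, a regulatory subunit of the large-conductance calcium-activated potassium channel on chr10:116417861-116473878, had 4.32, 4.86, 6.79, 6.82 and 4.56 CPM in WT libraries. The 10 OTULIN-KO libraries ran from 7.34 through a median of 9.78 to 15.6 CPM, with lesional replicates 5 and 11 at the top. Its log2 fold change was 0.93 ± 0.24, nearly alike in non-lesional (0.86) and lesional (1.002) skin. The counts behind these values are small, 11 to 16 in WT and 15 to 30 in OTULIN-KO libraries.

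*Acly*, which makes cytosolic acetyl-CoA from citrate for lipid synthesis, lies on chr11:100476353-100528000. WT libraries had 66.8, 60.9, 58.9, 58.4 and 55.0 CPM, and OTULIN-KO libraries 67.4 to 102 CPM with a median of 78.1. The gap between the groups was narrow, 66.8 against 67.4 CPM. The log2 fold change was 0.39 ± 0.11, with 0.40 in non-lesional and 0.38 in lesional skin.

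*Psmb4*, a subunit of the 20S proteasome core on chr3:94884093-94886961, had 91.9, 98.9, 116, 117 and 118 CPM in WT and 121, 133 and 186 CPM as the lowest, median and highest OTULIN-KO values. The highest was again lesional replicate 11. *Qrsl1*, a subunit of the mitochondrial glutamyl-tRNA amidotransferase on chr10:43874188-43901745, had 11.4 to 17.2 CPM in WT and 17.2 to 30.9 CPM in OTULIN-KO libraries, so that the closest libraries of the 2 groups were almost equal. The log2 fold changes were 0.35 ± 0.11 for *Psmb4* and 0.45 ± 0.17 for *Qrsl1*.

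*Fgfr3*, a fibroblast growth factor receptor of basal and suprabasal keratinocytes on chr5:33721674-33737068, was the one gene lower in all OTULIN-KO libraries with the scaling used here. WT libraries had 88.7, 82.6, 81.5, 75.0 and 82.8 CPM. Non-lesional libraries had 66.6, 66.6, 74.1, 65.6 and 64.0 CPM, and lesional libraries 64.6, 60.7, 63.0, 53.7 and 71.6 CPM. The groups were separated by less than 1 CPM, between non-lesional replicate 9 and WT replicate 10. Its log2 fold change was -0.34 ± 0.10, with -0.28 in non-lesional and -0.39 in lesional skin. In whole skin, fewer cells of a type and less RNA per cell cannot be told apart.

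**Figure D2:**
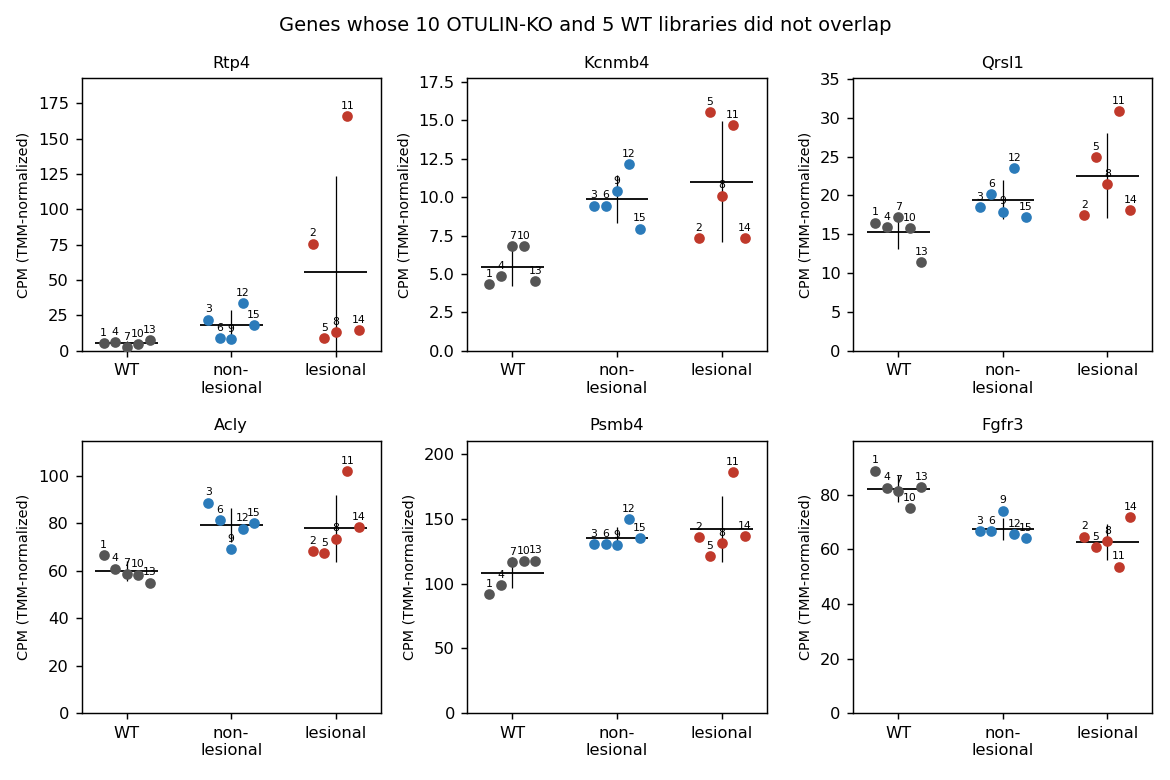
TMM-normalized CPM of the 6 genes in each library, by group, with the replicate number above each point, the mean as a horizontal line and 1 SD as a vertical line (cut at 0). All 10 OTULIN-KO points of a gene lie above its 5 WT points, or below them for *Fgfr3*, and lesional replicate 11 is the highest point for *Rtp4*, *Qrsl1*, *Acly* and *Psmb4*.

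Genes of the type I interferon response were the largest named group among the 81. Of 68 members of 5 lists, 49 passed the filter, 29 of them had an unadjusted p under 0.05 with higher values in OTULIN-KO skin, and 0 had lower values at that threshold. The share of all tested genes higher at that p was 2.08%. In both fits at once 23 members were higher, beside 0.602% of all tested genes. A member that is low in WT skin can pass the filter only through OTULIN-KO libraries, so the 33 members that reached the filter's level in all 5 WT libraries were also counted alone. Of these, 17 had an unadjusted p under 0.05 with higher values, and 32 had a fold change above 0. Their median log2 fold change was 0.78 over all OTULIN-KO libraries, 0.41 in non-lesional and 1.08 in lesional skin, while the median of all tested genes was 0.00 in the pooled comparison. Without lesional replicates 2 and 11 the pooled median of the 33 was 0.39 and the lesional one 0.29, and over all 49 tested members the pooled median was 0.49 in place of 0.99. The 19 members that did not pass had at most 13 counts in any WT library, and 5 of them exceeded 20 counts in an OTULIN-KO library, the highest being 130. The lists were chosen with results of these samples known, so the counts are a description.

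The response was uneven among OTULIN-KO libraries. The mean log2 CPM of the 49 genes was 3.60 to 3.92 in WT libraries, 3.80 to 4.61 in non-lesional and 3.94 to 6.19 in lesional libraries. Non-lesional replicate 6 lay inside the WT range at 3.80, and lesional replicates 5 and 8 lay just above it at 3.94 and 4.02. Lesional replicates 2 and 11 were highest at 5.28 and 6.19, and the other 3 lesional libraries averaged 4.12, below the non-lesional mean of 4.30. In lesional replicate 5, 10 of 49 genes (20.4%) were above all WT libraries, beside 15.8% of all tested genes in that library. In non-lesional replicate 6 it was 12 (24.5%), beside 14.3%. Over all tested genes the share above all WT libraries was 12.9% to 29.4% per library. In non-lesional replicates 12 and 15 the interferon count was 33 of 49 genes (67.3%), beside 14.8% and 14.9% of all tested genes. In lesional replicate 11 it was 47 (95.9%), beside 29.4%. The label of the skin did not order the libraries, since non-lesional replicates 3, 12 and 15 had higher levels than lesional replicates 5, 8 and 14.

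Among the transcription factors, *Irf9*, the DNA-binding part of the complex formed with STAT2, was at 61.3, 53.4, 39.4, 58.4 and 49.4 CPM in WT libraries. Non-lesional libraries had 108, 52.8, 77.9, 112 and 97.6 CPM and lesional libraries 166, 52.4, 75.6, 212 and 99.1 CPM. Non-lesional replicate 6 and lesional replicate 5 fell within the WT range and the other 8 OTULIN-KO libraries exceeded it. The log2 fold change was 1.01 ± 0.30, 0.77 in non-lesional and 1.21 in lesional skin. *Stat2* had 9.42 to 23.4 CPM in WT and 15.03, 25.8 and 85.6 CPM as the lowest, median and highest OTULIN-KO values, a log2 fold change of 1.02 ± 0.36, which was 0.62 without lesional replicates 2 and 11. *Irf7*, which amplifies interferon production, had 2.66 to 5.54 CPM in WT and 3.01 to 56.2 CPM in OTULIN-KO libraries, and its log2 fold change went from 1.92 to 1.12 without them. *Irf1* was the one tested member of this list with an unadjusted p over 0.05, at 0.18 ± 0.29. The gene of interferon-β itself, *Ifnb1*, had 0 counts in all 15 libraries, so no fold change is given.

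Among nucleic acid sensing genes, 4 of 9 tested had 8 or more of 10 OTULIN-KO libraries above all WT libraries, beside 0.728% of all tested genes. *Ddx60*, a helicase that assists RIG-I, had 3.97 to 9.87 CPM in WT libraries and 4.72, 25.4 and 101 CPM as the lowest, median and highest OTULIN-KO values, with a log2 fold change of 1.99 ± 0.61. *Eif2ak2*, the double-stranded RNA kinase PKR, had 8.95 to 14.03 CPM in WT and 10.4 to 61.8 CPM in OTULIN-KO libraries, a log2 fold change of 1.16 ± 0.39, or 0.67 without lesional replicates 2 and 11. *Tmem173*, which encodes STING, the adaptor of cytosolic DNA sensing, had 3.14 to 6.82 CPM in WT and 4.503 to 28.4 CPM in OTULIN-KO libraries, and 8 of 10 OTULIN-KO libraries lay above all WT libraries for each of these 3 genes. *Tmem173* was not among the genes higher in both fits, with an unadjusted p of 0.058 in non-lesional skin in edgeR.

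Antiviral effectors and membrane proteins included *Ifi35*, *Apol7a*, *Ifitm3*, *Ifi27l2a* and *Bst2*, the members with the smallest pooled p in their lists beside *Rtp4*. *Ifitm3*, which blocks virus entry at membranes, was the most abundant of the genes named here, with 251, 266, 301, 267 and 318 CPM in WT libraries. Non-lesional libraries had 427, 299, 424, 539 and 497 CPM, and lesional libraries 680, 299.8, 362, 1216 and 467 CPM. The same 2 libraries as for *Irf9* fell within the WT range. Its log2 fold change was 0.89 ± 0.28, with 0.64 ± 0.13 in non-lesional skin, and 0.56 when lesional replicates 2 and 11 were left out. *Apol7a*, an apolipoprotein L family member, had log2 fold changes of 1.87 ± 0.60 in non-lesional and 1.57 ± 0.46 in lesional skin, the most negative difference between the kinds among the 23 genes (-0.30 ± 0.59). *Bst2*, or tetherin, had 2.56 to 4.07 CPM in WT and 3.75 to 59.8 CPM in OTULIN-KO libraries, and the upper end was lesional replicate 11. Its log2 fold change of 1.85 was 0.87 without lesional replicates 2 and 11.

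ISG15 conjugation genes included *Usp18*, which removes ISG15 and dampens receptor signalling, with 1.70 to 4.86 CPM in WT and 3.01, 10.02 and 43.6 CPM as the lowest, median and highest OTULIN-KO values. The log2 fold change was 1.88 ± 0.56. *Dtx3l*, a ubiquitin ligase partner of PARP9, and *Parp14* had log2 fold changes of 0.92 ± 0.30 and 0.99 ± 0.35, and for both 9 of 10 OTULIN-KO libraries exceeded all WT libraries. Without lesional replicates 2 and 11 they were 0.56 and 0.54. The difference between lesional and non-lesional skin for *Parp14* was 0.81 ± 0.37, with an unadjusted p of 0.048 and an adjusted p of 0.97 in edgeR.

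Over the 23 interferon genes higher in both fits, the median log2 difference between lesional and non-lesional skin was 0.74, and 2 of them had an unadjusted p under 0.05 for it. Without lesional replicates 2 and 11 the direction turned, with a median of -0.41 and 22 of the 23 genes lower in lesional than in non-lesional skin. The 23 genes were chosen with those 2 libraries in the lesional fit, so the turn may partly follow from the choice. Over all 49 tested members of the interferon lists the median without them was -0.18, and 39 were lower in lesional skin. Over the other 58 higher genes the median difference was 0.21, or -0.11 without those 2 libraries, and 28 of those 58 had a difference within 0.2 of 0 on the log2 scale. The 58 include *Gbp2*, *H2-K1*, *H2-D1* and *B2m*, which belong to other parts of the interferon response listed below. No interferon gene of the 23 lay within 0.2.

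Promoter windows from RefSeq on GRCm38.p6, from 250 bases before to 50 bases after a gene's start, were searched on both strands for the letters GAAA, any 2 bases and GAAA again, the core of the interferon-stimulated response element. The letters occur in the windows of 3.99% of all 27025 genes that have one. Among the interferon lists 24 of 51 genes with a window held them (47.1%), and among the 23 genes higher in both fits 8 of 18 (44.4%). The other 58 higher genes, *Gbp2*, *H2-K1*, *H2-D1* and *B2m* among them, had a match in 7 of 51 windows (13.7%). The 28 lower genes had 0 matches in 21 windows. Printed here are 3 windows, those with a match and the smallest pooled p among the 23 genes. They were chosen after these values were seen, with the matched letters in capitals.
Ddx60, chr8:61927837-61928136, plus strand: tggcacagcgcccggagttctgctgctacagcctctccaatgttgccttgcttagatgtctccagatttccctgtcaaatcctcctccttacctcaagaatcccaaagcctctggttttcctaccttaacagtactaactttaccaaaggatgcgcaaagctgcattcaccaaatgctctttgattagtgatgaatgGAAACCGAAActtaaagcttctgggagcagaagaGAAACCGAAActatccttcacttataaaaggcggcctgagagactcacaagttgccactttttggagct
Ifitm3, chr7:141010695-141010994, minus strand: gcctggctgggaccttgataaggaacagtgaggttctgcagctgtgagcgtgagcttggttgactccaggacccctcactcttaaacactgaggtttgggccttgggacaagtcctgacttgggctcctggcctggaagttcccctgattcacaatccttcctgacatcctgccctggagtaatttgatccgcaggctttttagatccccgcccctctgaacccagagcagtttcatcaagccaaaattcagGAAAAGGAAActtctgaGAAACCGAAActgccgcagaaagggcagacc
Eif2ak2, chr17:78882523-78882822, minus strand: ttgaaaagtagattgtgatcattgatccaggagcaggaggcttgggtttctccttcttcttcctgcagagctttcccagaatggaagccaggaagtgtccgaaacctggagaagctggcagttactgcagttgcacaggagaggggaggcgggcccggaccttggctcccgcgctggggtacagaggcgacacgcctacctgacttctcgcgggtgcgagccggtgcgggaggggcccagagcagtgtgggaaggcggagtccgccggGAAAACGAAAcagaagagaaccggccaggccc
The *Ddx60* window holds 2 matches upstream of the start, at -53 and -19, and the *Ifitm3* window 2 matches just after it, at 3 and 20. *Eif2ak2* has 1, at 19. The windows of *Ifi35*, *Irf9* and *Apol7a*, the genes with the smallest pooled p among those with a window, hold none, and *Usp18* has no entry. A match is a description of these letters, and binding was not measured.

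Other parts of the interferon response had fewer members at an unadjusted p under 0.05. Guanylate-binding and related GTPases, which interferon-γ induces most strongly, had 2 of 9 tested members higher at an unadjusted p under 0.05, beside 2.08% of all tested genes, *Gbp7* (0.57 ± 0.23) and *Gbp2* (1.07 ± 0.48), and these were 0.28 and 0.37 without lesional replicates 2 and 11. All 9 had a fold change above 0, with a median of 0.64, which was 0.28 without those libraries. MHC class I presentation genes had 1 of 14, *H2-D1*, at 0.59 ± 0.24, and 0.29 without those 2 libraries. *H2-K1*, *H2-D1* and *B2m* were higher in both fits (0.602% of all tested genes were), and all 14 tested members had a fold change above 0. The median of 0.57 was 0.16 without lesional replicates 2 and 11. The receptors, JAK kinases and SOCS inhibitors through which interferons signal had 0 of 9 at that p in either direction, with a median log2 fold change of 0.00. None of the genes in these 3 lists passed an adjusted p under 0.05.

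In the list of enzymes that build fatty acids, the 3 genes higher in both fits had similar values in the 2 kinds of OTULIN-KO skin. They were chosen for an unadjusted p under 0.05 in both, so this likeness is partly set by the choice. Acetyl-CoA carboxylase 1, *Acaca*, which commits acetyl-CoA to fatty acid synthesis (chr11:84129672-84401651), had the smallest unadjusted p of all tested genes (0.00022, adjusted p 0.9996 in edgeR). WT libraries had 27.9, 23.4, 31.2, 27.7 and 24.3 CPM. Non-lesional libraries had 53.1, 30.5, 40.4, 41.7 and 42.8 CPM and lesional libraries 37.1, 38.4, 39.6, 40.0 and 55.0 CPM. Non-lesional replicate 6 alone fell within the WT range. The log2 fold change was 0.64 ± 0.14, with 0.63 ± 0.16 in non-lesional and 0.64 ± 0.17 in lesional skin. Leaving out any 1 library moved it between 0.58 and 0.69, and without lesional replicates 2 and 11 it was 0.66.

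Fatty acid synthase, *Fasn*, had 101, 101, 132, 179 and 149 CPM in WT libraries. OTULIN-KO libraries ran from 119.7 to 268 CPM with a median of 204, and 8 of 10 exceeded all WT libraries. The lowest was lesional replicate 2, one of the 2 libraries with the highest interferon levels. The log2 fold change was 0.63 ± 0.17, 0.69 in non-lesional and 0.56 in lesional skin, and the difference between the kinds was -0.13 ± 0.18. With *Acly*, these are the 3 enzymes that lead from citrate to palmitate. *Pcx*, pyruvate carboxylase, which replenishes oxaloacetate for citrate export, was outside the list, with 14.1 to 17.5 CPM in WT and 17.1, 24.3 and 43.2 CPM as the lowest, median and highest OTULIN-KO values. Its log2 fold change was 0.75 ± 0.20, again 0.74 and 0.76 in the 2 kinds.

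Of the fatty acid list all 20 members were tested. *Acly*, *Acaca*, *Fasn*, *Acss2* and *Slc25a1* make up the 5 that had an unadjusted p under 0.05 with higher values, against 2.08% of all tested genes, and 18 had a fold change above 0. The median log2 fold change was 0.26, with 0.27 in non-lesional and 0.19 in lesional skin, beside 0.00 for all genes. Fold changes of *Scd3*, *Elovl5*, *Fads1* and *Fads2* were above 0 in non-lesional and below 0 in lesional skin. The other members had the same sign in both. Mean log2 CPM over the list was 6.14 to 6.35 in WT libraries, and 7 of 10 OTULIN-KO libraries exceeded that range. Lesional replicate 11, which was far above the others for interferon genes, was at 6.43 here, and non-lesional replicate 12 was highest at 6.67. The sebaceous gland list, whose cells make lipid in bulk, had 0 of 12 members at an unadjusted p under 0.05 in either direction and had 3 of 10 OTULIN-KO libraries above and 2 below the WT range. The adipocyte list likewise had 0 of 13, with 1 of 10 libraries above that range.

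Cholesterol synthesis genes were higher in part of the libraries. Of 24 members, 21 were tested and all 21 reached the filter's level in every WT library. With higher values 7 had an unadjusted p under 0.05, against 2.08% of all tested genes, and with lower values 0, and 6 were higher in both fits, against 0.602% of all tested genes. The median log2 fold change was 0.25, which was 0.14 without lesional replicates 2 and 11 and 0.16 without WT replicate 4. *Acat2*, which joins acetyl-CoA units at the entry of the pathway, had 27.1, 31.4, 32.6, 30.3 and 30.4 CPM in WT libraries, and OTULIN-KO libraries had 31.6, 42.7 and 64.3 CPM as lowest, median and highest, with 9 of 10 above WT. The sterol oxidase gene *Msmo1* differed by 0.40 ± 0.14 on the log2 scale. Lesional replicate 11 had the highest list level, 6.36 against 5.19 to 5.69 in the other OTULIN-KO libraries, and 5 of 10, with non-lesional replicate 15 lowest at 5.19, were within the WT range of 5.15 to 5.49.

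**Figure D3:**
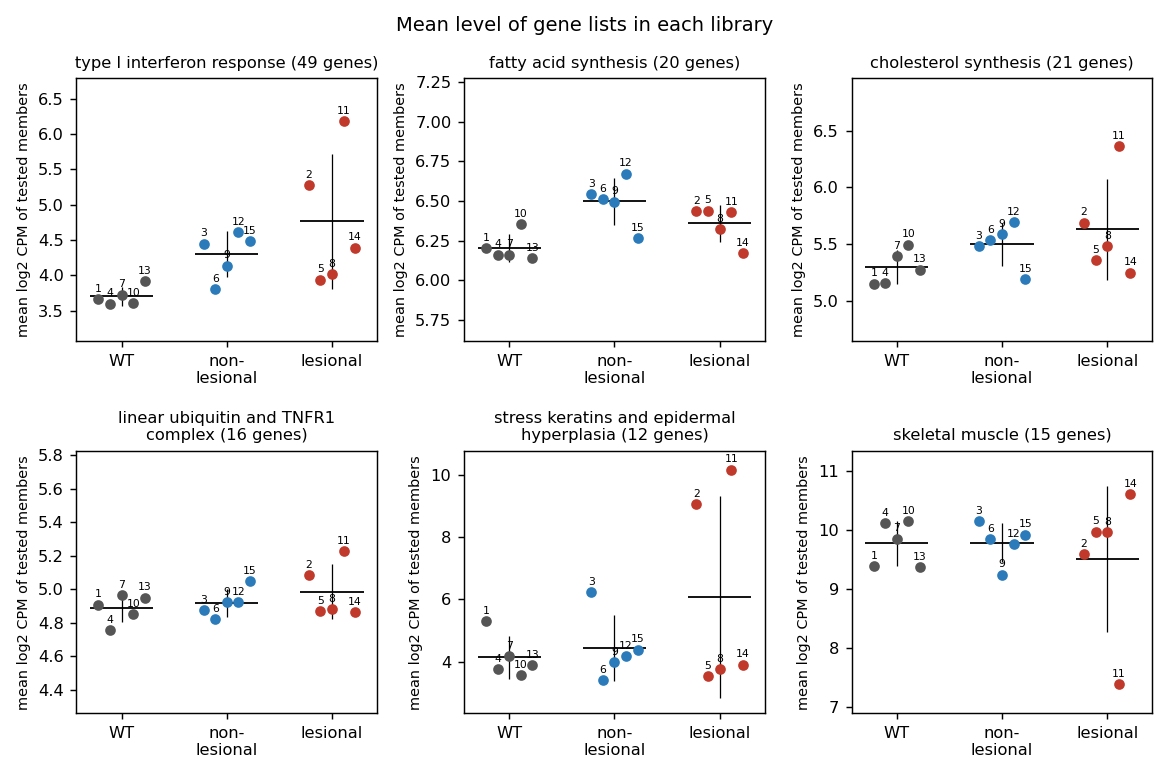
Mean log2 CPM of the tested members of 6 gene lists in each library, by group, with the replicate number above each point, the mean as a horizontal line and 1 SD as a vertical line; the vertical axes do not start at 0. The interferon list is spread widely among OTULIN-KO libraries with lesional replicates 2 and 11 at the top, the fatty acid list lies above the WT range in 7 of 10, the linear ubiquitin list overlaps WT, and the stress keratin and muscle lists are set apart by single libraries.

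Other genes with a small p in both fits were of mixed function, and they were chosen after their values were seen. *Proca1*, a cyclin A1 interactor on chr11:78193392-78205763, had 1.77 to 4.71 CPM in WT and 4.16, 7.27 and 13.3 CPM as the lowest, median and highest OTULIN-KO values, a log2 fold change of 1.32 ± 0.31. *Pik3ap1*, an adaptor that links Toll-like and B cell receptors to phosphoinositide 3-kinase, had 0.852 to 1.96 CPM in WT and 1.62 to 16.7 CPM in OTULIN-KO libraries, from only 2 to 5 counts per WT library. *Nop2* and *Rrp12*, which act in ribosome assembly in the nucleolus, differed by 0.80 ± 0.23 and 0.71 ± 0.22, each with 9 of 10 OTULIN-KO libraries above all WT libraries. *H60c*, a ligand of the NKG2D receptor that keratinocytes express, had 10.3 to 20.4 CPM in WT and 12.5, 22.02 and 29.4 CPM in OTULIN-KO skin.

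Of the 28 genes lower in both fits, 16 had 8 or more OTULIN-KO libraries below all WT libraries (0.498% of all tested genes), which were the libraries used to choose them. *Ankzf1*, a peptidyl-tRNA hydrolase of ribosome quality control, was below WT in 9 of 10 libraries, with 29.8, 32.2, 26.3, 36.2 and 32.3 CPM in WT and 18.8, 24.3 and 29.6 CPM as lowest, median and highest OTULIN-KO values. *Amn1* was below in 8 of 10, at -0.46 ± 0.13. *Arsa*, the lysosomal arylsulfatase A, was also below in 8 of 10, and its log2 fold change was -0.55 ± 0.17.

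Further lower genes were of mixed function. *Slc4a4*, a sodium bicarbonate cotransporter, had 36.5, 33.5, 36.7, 25.6 and 36.1 CPM in WT and 14.2, 21.5 and 31.9 CPM in OTULIN-KO libraries, a log2 fold change of -0.58 ± 0.17. *Skint7*, of the Skint family of immunoglobulin-like genes of thymus and epidermis, had 15.3, 10.6, 14.03, 16.2 and 23.2 CPM in WT, and 2.53, 8.98 and 12.4 CPM in OTULIN-KO skin, with lesional replicate 11 lowest. *Pkd2*, which encodes polycystin-2, *Efna4*, an ephrin ligand, and *Pir*, which encodes pirin, had 7 of 10 OTULIN-KO libraries below all WT libraries, with log2 fold changes of -0.45 ± 0.14, -0.51 ± 0.16 and -0.72 ± 0.23. *Accs* differed by -0.95 ± 0.30 but had only 4 to 13 counts per OTULIN-KO library. *C230085N15Rik* (-0.94 ± 0.28) and *4930538E20Rik* (-0.99 ± 0.30), which the annotation does not list as protein-coding, also had few counts.

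**Figure D4:**
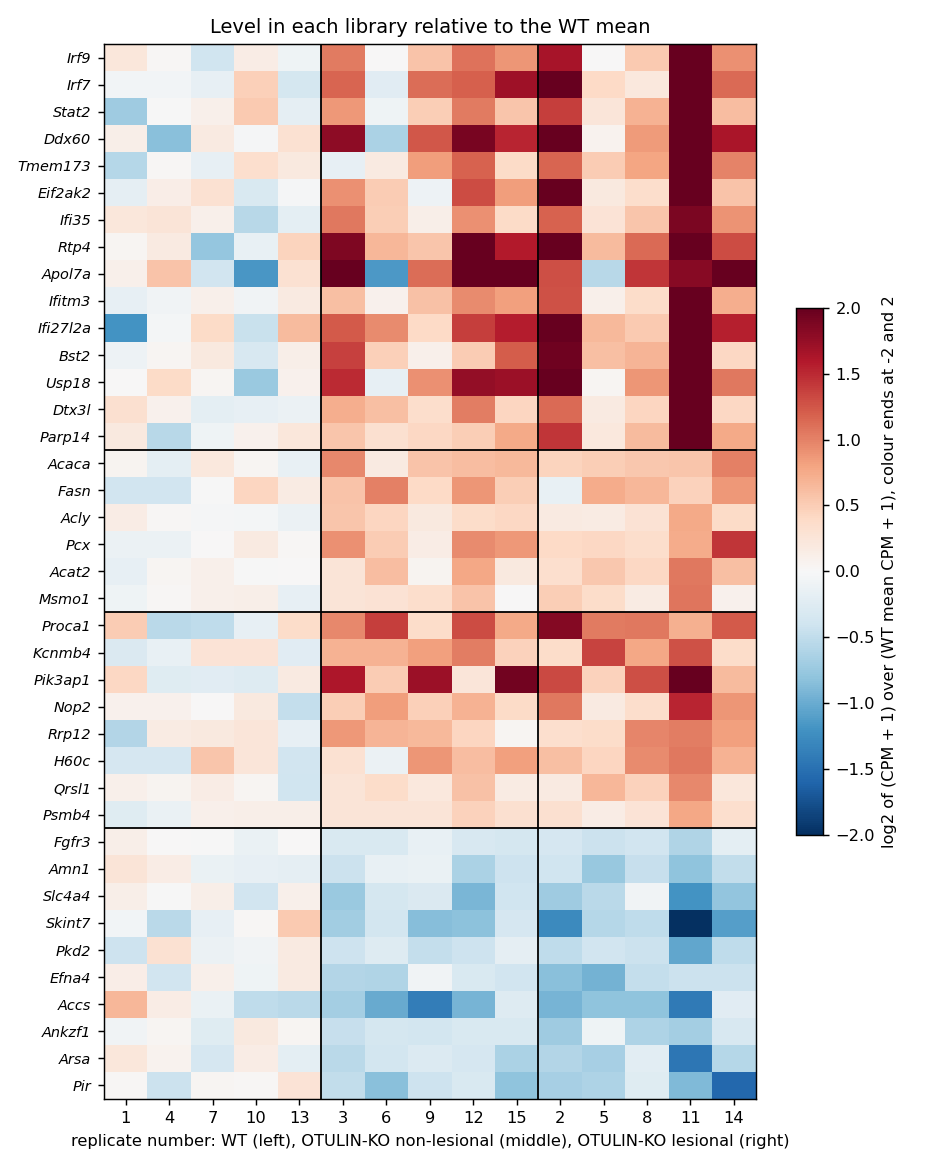
Colour gives the log2 ratio of each library's CPM plus 1 to the WT mean CPM plus 1, with genes in rows (interferon, lipid synthesis, other higher and lower genes from top to bottom) and libraries in columns, WT on the left, non-lesional in the middle and lesional on the right. Genes were picked for their difference from WT, so the contrast itself is no test. The interferon block is palest in non-lesional replicate 6 and lesional replicate 5 and darkest in lesional replicate 11, whereas the lipid block is more even across libraries.

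*Otulin* itself, on chr15:27542635-27630693, overlapped between the groups in whole skin. WT libraries had 23.2, 28.3, 28.5, 12.4 and 23.2 CPM, non-lesional 31.1, 21.5, 28.7, 22.3 and 27.4 CPM and lesional 27.5, 19.2, 25.9, 24.3 and 27.0 CPM. Its log2 fold change was 0.14 ± 0.17 (two-sided exact permutation test over samples, p = 0.340). These 3′ reads cover the end of the transcript, and the sources used here do not give the deleted exon, so the value is no check of the labels. Cells other than keratinocytes kept the gene. LUBAC and TNF receptor 1 complex genes had 1 of 16 tested members at an unadjusted p under 0.05, beside 3.50% of all tested genes in either direction, the adaptor *Traf2* at 0.82 ± 0.31 from 7 to 30 counts per library, with 0.77 in non-lesional and 0.88 in lesional skin. The apoptosis and necroptosis list had 0 of 10 at that p in either direction with a median of 0.04, and 4 of its 14 members, among them *Ripk3*, *Mlkl* and *Zbp1*, were too low to test. *Zbp1* reached 56 counts and *Mlkl* 28 in an OTULIN-KO library, against at most 5 and 11 in WT. NF-κB subunits and inhibitors had 0 of 10 at that p, with a median of 0.16, which was 0.02 without lesional replicate 11 and -0.04 without lesional replicates 2 and 11.

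Among inflammatory and hyperplasia genes, large fold changes rested on a few libraries. Of 23 stress keratin and hyperplasia genes 12 were tested, and their median log2 fold change was 3.35 over all OTULIN-KO libraries, 0.51 in non-lesional and 4.26 in lesional skin. It was -0.16 without lesional replicates 2 and 11. The 5 members that reached the filter's level in all WT libraries had medians of 1.09 pooled, -0.16 in non-lesional and 1.74 in lesional skin. *Krt6b*, a keratin of wounded epidermis, had 1.28 to 17.3 CPM in WT libraries and reached 3569 and 8822 CPM in those 2 libraries and 223 CPM in non-lesional replicate 3, while the other 7 OTULIN-KO libraries had 0.859 to 10.2 CPM. The stefins *Stfa1* and *Stfa3* followed the same libraries, with 201 and 512 CPM of *Stfa1* and 631 and 2331 CPM of *Stfa3* in lesional replicates 2 and 11. Of 27 innate inflammation genes 9 were tested, and *S100a8* and *S100a9* were the 2 with higher values at an unadjusted p under 0.05, beside 2.08% of all tested genes. Neither was among the 3 members that reached the filter's level in all WT libraries. *S100a9* had 1724 and 2735 CPM in lesional replicates 2 and 11, 104 CPM in non-lesional replicate 3 and 0.404 to 7.95 CPM in the other 7. Of 9 neutrophil list members 7 were too low to test. Among these *Ly6g* and *Csf3r* had 0 counts in all 15 libraries, while *Clec4d* reached 34 counts, *Retnlg* 23 and *Cxcr2* 11 in an OTULIN-KO library, against at most 4, 3 and 0 in WT.

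For lists that mark other cells of skin, the shares to set counts against are those of all tested genes at an unadjusted p under 0.05, 2.08% higher and 1.42% lower. The macrophage list had 1 of 12 tested members at an unadjusted p under 0.05, *Aif1*, at 5.50 to 9.71 CPM in WT and 4.30, 11.3 and 25.3 CPM as lowest, median and highest OTULIN-KO values, with 9 of 10 above WT and non-lesional replicate 6 below. The tested members of the Langerhans and T cell, muscle, endothelial, collagen and erythroid lists had none in either direction. Outside the lists, the lymphocyte genes *Cd2* and *Spn* were among those higher in both fits (both 1.22 on the log2 scale), and the endothelial genes *Sox17* (-0.83) and *Apold1* (-0.56) among those lower. These genes were picked after values were seen. Of 10 OTULIN-KO libraries, 8 for *Cd2* and 5 for *Spn* were above all WT libraries. Below all WT libraries were 4 for *Sox17* and 8 for *Apold1*. Erythroid genes had a median log2 fold change of 0.49, with 0.71 in non-lesional skin, and it was 0.27 without non-lesional replicate 12. For the list level 4 of 10 OTULIN-KO libraries were above and 1 below the WT range. For melanocyte genes, too, 4 were above and 1 below. Proliferation genes had 2 of 18, *Mcm5* (0.87 ± 0.34) and *Plk1* (0.79 ± 0.32), and these were 0.70 and 0.50 without lesional replicates 2 and 11. With hair and muscle levels as covariates they were 0.39 and 0.33, and the list's median was 0.10 in place of 0.34. The epidermal differentiation list had 1 of 30, *Hrnr*, at 0.22 ± 0.11. Among melanocyte genes *Mlana* was higher by 0.94 ± 0.33 from 4 to 12 counts per library, and the list's median was -0.07. The hair follicle list had 3 of 6 tested members lower at that p, *Tchh*, *Tchhl1* and *Hoxc13*, and WT replicate 1 was far above the other WT libraries for each. *Tchh* had 977 CPM there and 21.3 to 106 CPM in the other WT libraries, and its log2 fold change of -2.42 became -0.06 without that library. Skeletal muscle genes were at a mean log2 CPM of 7.38 in lesional replicate 11 and 9.24 to 10.6 in the other OTULIN-KO libraries, and the part of tissue composition in the values of that library was not tested.

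Several named genes share exonic bases with another gene in the GENCODE annotation of GRCm38. On the same strand these are *Irf9* with *Rnf31*, *Rtp4* with *Gm45338*, *Parp14* with *Gm49730* and *Gbp7* with *Gm43802*. On the opposite strand they include *Kcnmb4*, *Fgfr3*, *Irf7*, *Eif2ak2*, *Ifi35*, *Usp18*, *Dtx3l*, *Gbp2*, *Krt6b*, *Plk1*, *Efna4*, *Arsa*, *Ankzf1* and *4930538E20Rik*, the last with *Bcl11a*. A read there was counted for both genes on the same strand, and no strand setting is stated, so values of such pairs may hold reads of either. *H2-D1*, *Stfa1*, *Stfa3*, *Krt6b*, *Skint7* and *Apol7a* belong to families with near-identical copies, and reads may be split among them.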

How the data were processed

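RNA from whole mouse skin was sequenced with the QuantSeq 3′ kit. The methods word their limit on RNA integrity in conflicting ways, and no integrity values were used here. The authors deposited raw counts per gene, made by clipping reads with cutadapt 2.10 (minimum length 35), removing QuantSeq-specific features, mapping with subread-align to GRCm38 plus spike-in sequences, keeping mapping quality 30 or more, and counting exonic reads (minimum overlap 20) with featureCounts 2.0.1. The annotation release is not given in the sources used here. The authors also deposited CPM, not used here. Spike-in rows (92, with 0 counts) were dropped, leaving 55487 genes. Counts are reads, not unique molecules.

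Groups came from the labels. The counts were fitted with edgeR 4.0.16 in R 4.3.3: filterByExpr by genotype (minimum count 10), TMM factors, robust quasi-likelihood F-test, two-sided, Benjamini-Hochberg over 13461 genes. Errors are standard errors of log2 fold changes, OTULIN-KO minus WT. CPM per library use TMM factors, and mean log2 CPM a prior count of 2. Pair fits kept the genes and factors of the pooled fit. Gene lists and comparisons were chosen with earlier results of these data known. Alternatives included DESeq2 1.42.0 and limma 3.58.1. Named genes are *Otulin*, *Ifnb1*, genes without overlap, and up to 3 members of each list with the smallest p below 0.05. Because no gene was called, 12 higher and 12 lower genes with the smallest p among those in both pair fits were added after seeing values. *Irf1*, *Acss2*, *Slc25a1*, *Scd3*, *Elovl5*, *Fads1*, *Fads2*, *H2-K1*, *B2m*, *Ripk3*, *Mlkl*, *Zbp1*, *Ly6g*, *Csf3r*, *Clec4d*, *Retnlg*, *Cxcr2*, *Cd2*, *Spn*, *Sox17* and *Apold1* were also named then.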

Additional observations from a re-analysis of the deposited data

Results flagged for a closer look

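Dixon's test at its 95% level was run on 148 groups of 5 or 10 libraries over 37 list levels and gene values, and 14 were set apart; chance alone sets apart about 1 in 20 groups. Lesional replicate 11 accounted for 7 of them. Within the OTULIN-KO group it was highest for cholesterol synthesis (mean log2 CPM 6.36, others 5.19 to 5.69), for apoptosis and necroptosis genes (4.83, others 4.11 to 4.47) and for NF-κB subunits and inhibitors (5.83, others 4.41 to 5.15), and lowest for skeletal muscle genes (7.38, others 9.24 to 10.6). It also had the highest *Rtp4* (166 CPM, others 8.33 to 75.7) and the highest *Psmb4*, at 186 CPM, both among lesional libraries and among all OTULIN-KO libraries.

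Non-lesional replicate 12 had the highest non-lesional *Psmb4* (149.9 CPM, others 129.5 to 135.1), non-lesional replicate 9 the highest non-lesional *Fgfr3* (74.1 CPM, others 64.0 to 66.6) and non-lesional replicate 3 the lowest level of melanocyte genes (4.17, others 4.75 to 4.95). Among WT libraries, replicate 1 was highest for hair follicle genes (5.83, others 3.55 to 4.17) and lowest for melanocyte genes (3.94, others 4.59 to 4.85), replicate 10 was highest for interferon transcription factors (4.86, others 4.38 to 4.51), and replicate 13 was lowest for *Qrsl1* (11.4 CPM, others 15.8 to 17.2).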

How the results depend on the processing

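Of 29 alternatives 15 left out 1 library each. Under each alternative that refitted the pooled comparison, thresholds of 0.1 and 0.01 included, 0 genes were called, and 0 genes were called in it with an unadjusted p under 0.05 in both pair fits. Among the named genes the smallest adjusted p was 0.30, for *Proca1* with hair and muscle levels as covariates, and 0.33 for *Acaca* with DESeq2.

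Without the filter, counts at an unadjusted p under 0.05 were 733 higher and 833 lower genes pooled, 156 higher and 112 lower in both fits, 1235 in the non-lesional and 1308 in the lesional comparison. Without lesional replicates 2 and 11 there were 34 higher genes in both fits and 390 in the lesional comparison. Leaving out each replicate gave 22 to 51 genes lower in both fits (most without WT replicate 7, and 46 without WT replicate 10) and 350 to 1020 in the lesional comparison, fewest without lesional replicate 11 and most without lesional replicates 14 and 5 (1016). Genes without overlap numbered 3 higher and 3 lower with upper quartile factors, 2 lower with DESeq2 size factors, 0 lower over plain library totals, 5 lower without lesional replicates 2 and 11, and 3 to 16 higher and 1 to 14 lower when 1 library was left out, most without WT replicate 10. With fewer libraries a gene without overlap is easier to meet.

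The hair follicle median of -0.55 was -0.15 without WT replicate 1, -0.07 with hair and muscle covariates, -1.73 without the filter and -1.71 with at least 10 counts in every library. The stress keratin median was 5.83 and 1.07 under those filters, 0.44 with voomWithQualityWeights and -0.16 without lesional replicates 2 and 11. The neutrophil median, 7.69 over 2 tested genes, was 2.86 with DESeq2, 2.52 without the filter, 2.02 with voomWithQualityWeights and 13.9 with the covariates. *Otulin* ranged from -0.013 (without WT replicate 10) to 0.22 when 1 library was left out, and *Tchh* and *Hoxc13* turned to 0.25 and 0.0096 with the covariates; the cause was not tested. Medians have no value where no member passed the filter. No paired analysis was made, because the groups share no replicate numbers and no label names pairs. Lesional replicate 11 and non-lesional replicate 12, neighbours in number, were the 2 OTULIN-KO libraries with under 10 Y-linked counts (2 and 0). WT replicate 1 also had 0. Whether neighbouring numbers came from 1 mouse was not tested. Depth limits genes under about 10 counts per library.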
